A study of Mus musculus with 9 samples.

Results

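The genes described here are the lysosomal cathepsins, the subunits of the vacuolar proton pump (V-ATPase) and the membrane proteins LAMP1 and LAMP2, taken from a count table of mouse liver by their symbols: Cts followed by 1 letter, any symbol that opens with Atp6v0 or Atp6v1, and Lamp1 or Lamp2. This rule matched 43 of the 23337 genes in the table, namely 18 cathepsins, 23 V-ATPase subunits (10 of the membrane part V0 and 13 of the peripheral part V1) and 2 LAMP genes. The livers came from 9 C57BL/6 mice that were 6 to 8 weeks old when a high-fat diet began and stayed on it for 16 weeks, so the controls carried the diet too. Each of 3 labelled groups holds 3 mice: PAR2fl/fl controls (WT), PAR2dHep mice, which lack protease-activated receptor 2 in hepatocytes (dHep), and PAR2 KO mice, which lack it throughout the body (KO). They name no Cre driver for PAR2dHep, and they do not give sex or litter. The series title links the receptor to obesity, dyslipidemia, MASLD (fatty liver disease) and HNF4a, a transcription factor of hepatocytes.

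Cathepsins are proteases that break down proteins inside lysosomes, and most of them work best in acid. The V-ATPase supplies that acid: its V1 part hydrolyses ATP in the cytosol and its V0 part moves protons through the lysosomal membrane, whose most abundant proteins are LAMP1 and LAMP2. In liver, hepatocytes express these genes broadly, while cathepsins S, K and C and the subunit isoform Atp6v0d2 are known from macrophages and related cells, and the transcription factor TFEB drives many lysosomal genes through a short palindromic promoter element.

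Reads of F2rl1, the gene that encodes PAR2, went against 1 of the labels. Reads in WT numbered 17, 27 and 28, those in dHep 2, 8 and 0, and those in the libraries labelled KO 71, 103 and 76. All 3 dHep libraries lay below all WT libraries (log2 fold change -2.73 ± 0.66, SE; edgeR adjusted p = 0.0164), and all 3 libraries labelled KO lay above them (2.22 ± 0.51; edgeR adjusted p = 0.00735). Counts cover the whole gene, so reads inside and outside a deleted stretch were not separated, and every direction given below for the libraries labelled KO rests on that label. Depth ran from 18683660 to 30509242 reads assigned to genes. Pancreatic marker genes summed to 478 CPM (counts scaled to a common library size with TMM factors) in WT replicate 1 and 1892 CPM in dHep replicate 2, which also held 621 CPM of muscle markers, and the gut gene Vil1 stood at 39.2 CPM in KO replicate 1. Hepatocyte markers had the largest of the 12 marker sums in every library, with WT between 129480 and 135110 CPM, dHep between 135720 and 192740 and KO between 139840 and 155300. Every WT sum of hepatocyte markers thus lay below all others, but only narrowly below the lowest of dHep. Of 13 such markers tested, 5 rose in each comparison against WT (38.5%, beside 12.4% of all genes in dHep and 20.9% in KO), and 1 fell in dHep and 0 in KO. P-values measure the spread between these mice, 3 in a group, for which an exact two-sided permutation test cannot go below 0.1.

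Promoter sequences were searched for the TFEB-type element and for its shorter E-box core among members that moved in different ways. RefSeq windows of 300 bases, from 250 bases before each start site, were matched for 32 of the 43 members, 21 of them among the members tested below. No window was matched for Atp6v1h, Ctse, Ctsb, Atp6v1c1, Atp6v0c-ps2, Ctsw, Atp6v0d2, Atp6v1g1, Atp6v0a2, Atp6v1b2 and Ctsh. The E-box core CACGTG, searched on both strands, stood in 9 of the 21 tested members with a window (42.9%), against 11.5% of 9453 tested genes and 8.09% of all 27025 genes with a window. Its extended form TCACGTGA, which holds the core and is part of the element TFEB recognises, stood in 5 of 21 (23.8%), namely Atp6v1a, Atp6v0e, Ctsa, Ctsd and Atp6v0d1, against 2.16% of tested genes and 1.12% of all. The form TCACGTG, which overlaps both, stood in 7 of 21 (33.3%), against 6.81% of tested genes and 4.29% of all. GAGGAAGT, letters bound by the myeloid factor PU.1, stood in 2 of 21 (9.52%), Ctss and Ctsc, against 3.79% of tested genes and 3.69% of all. A match of letters is a description of these windows and not a measured binding site.

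The first 4 stretches below were chosen after the matches were seen, because they carry the E-box core (capitals) upstream of a gene that was lower in both knockout groups (Ctsd, Atp6v1a), one that was higher in the libraries labelled KO (Atp6v0b) and one that did not pass in any comparison (Lamp1). The last shows the PU.1 letters (capitals, reading ACTTCCTC because they lie on the opposite strand) before Ctsc. All are 80 bases of GRCm38.p6, written 5′ to 3′ on the gene's own strand, and end before the first exon in the count table.
Ctsd, chr7:142387878-142387957, minus strand: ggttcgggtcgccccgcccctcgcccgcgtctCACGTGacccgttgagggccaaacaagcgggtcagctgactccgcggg
Atp6v1a, chr16:44139350-44139429, minus strand: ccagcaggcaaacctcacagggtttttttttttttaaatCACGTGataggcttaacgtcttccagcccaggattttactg
Atp6v0b, chr4:117887330-117887409, minus strand: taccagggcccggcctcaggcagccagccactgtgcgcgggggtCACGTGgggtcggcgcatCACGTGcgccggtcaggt
Lamp1, chr8:13159046-13159125, plus strand: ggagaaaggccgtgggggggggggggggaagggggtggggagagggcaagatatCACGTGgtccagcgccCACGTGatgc
Ctsc, chr7:88277895-88277974, plus strand: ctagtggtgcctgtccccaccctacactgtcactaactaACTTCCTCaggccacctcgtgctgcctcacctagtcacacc
Of the 9 tested members with the E-box core, Ctsd and Atp6v1a were lower and Atp6v0b higher in at least 1 comparison against WT. Of the same 9, Ctsl, Atp6v0e, Ctsf, Ctsa, Lamp1 and Atp6v0d1 passed in no comparison. The extended form TCACGTGA stood in 2 of 7 members with a window that were lower in KO against WT, Ctsd and Atp6v1a. It stood in 0 of the 3 with a window that were higher there.

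Together the members took 0.542% to 0.608% of assigned reads in the WT libraries, 0.416% to 0.463% in dHep and 0.443% to 0.457% in the libraries labelled KO. As raw shares, those of both knockout groups did not overlap WT, and those of dHep and KO overlapped each other. They leave out the TMM factors used for CPM, which were 1.07 to 1.10 in WT and 0.883 in dHep replicate 3. With these factors applied, dHep replicate 3 lay above WT replicate 1, so the separation of dHep from WT depends on the scaling. Levels of different genes can be compared only per length, here as RPKM (CPM per kilobase of the gene's length, description only). In WT the highest were Lamp1 (363 ± 5.37 RPKM, SD, n = 3), cathepsin L (Ctsl, 349 ± 31.5), the aspartic protease cathepsin D (Ctsd, 277 ± 21.0) and the cysteine protease cathepsin B (Ctsb, 190 ± 12.9). Lamp1 and Ctsl differed by less than the spread of Ctsl. Lamp2 (172 ± 4.36), Ctsz (141 ± 8.01) and Ctsh (134 ± 2.1) followed, the last pair within their spread. Cathepsins S and C stood lower in WT (65.5 ± 6.11 and 39.5 ± 3.04), and cathepsin K at 1.29 ± 0.28. Among V-ATPase subunits the stalk subunit Atp6v1e1 was highest in WT (98.4 ± 6.23), and the catalytic Atp6v1a (26.2 ± 1.04), Atp6v1b2 (23.5 ± 2.05), Atp6v1c1 (22.1 ± 1.47) and Atp6v1g1 (21.2 ± 1.66) lay near each other, with every neighbouring pair apart by less than the sum of its SDs. In the libraries labelled KO, Ctsz (186 ± 12.3 RPKM) stood above Ctsd (167 ± 11.4) and Ctsb (133 ± 6.4), which both stood above Ctsz in WT.

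**Figure D1:**
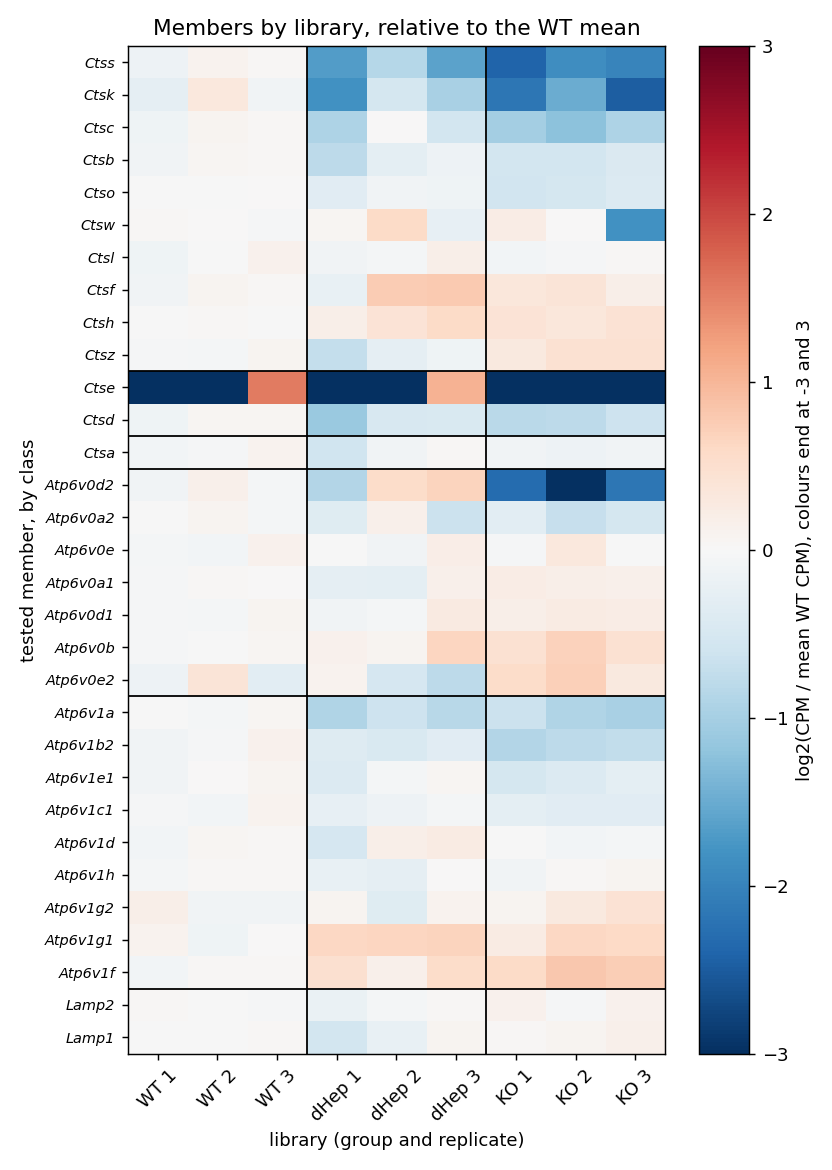
Each row is 1 of the 31 tested members, grouped by class and ordered by its change in the libraries labelled KO, and each column is 1 library; colour gives log2 of CPM over the mean WT CPM, with the scale ending at -3 and 3. Ctss is blue in all 6 libraries of both knockout groups, Atp6v0d2 is blue in the 3 libraries labelled KO and in dHep replicate 1, and Ctse is red in WT replicate 3 and dHep replicate 3 alone.

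Of the 43 members, 31 had enough reads to be tested (13 cathepsins, 7 V0 and 9 V1 subunits and both LAMP genes). Another 8 had no read in any library: the placental cathepsins Ctsm, Ctsq and Ctsr, the subunit isoforms Atp6v1b1, Atp6v1e2 and Atp6v1g3 of kidney, testis and other tissues, Atp6v0c and its copy Atp6v0c-ps2. A count of 0 allows up to 3 reads in the 219181125 of all libraries, or 0.0136 CPM, for counting error only. For Atp6v0c, the proteolipid that forms the proton-carrying ring of V0, that limit says nothing about expression. In the table its exons share 1117 of 1151 bases (97.0%) with those of Atp6v0c-ps2 on the same strand, and the counting command, per the file headers, set no option that would assign a read to overlapping genes. The ring subunit is therefore represented here by Atp6v0b alone. Reads were too few for a test in Ctsg (2 in all libraries), Atp6v1c2 (4) and Atp6v0a4 (36). The remaining untested gene, Ctsj, another placental cathepsin, had 5, 7 and 5 reads in WT and 0 in each of the other 6 libraries; it is singled out after its values were seen.

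In dHep against WT, the comparison that asks what loss of the receptor in hepatocytes does to the liver, 4 members fell and 3 rose. Cathepsins S and D and the ATP-hydrolysing core subunits Atp6v1a and Atp6v1b2 fell, and cathepsin H and the small V1 subunits Atp6v1g1 and Atp6v1f rose. The 7 calls are 22.6% of 31 members, and 24.3% of all 13141 genes tested passed in this comparison (edgeR, adjusted p under 0.05), 12.4% up and 11.9% down, so the share of members was near the background. The median log2 change was -0.15 over members and 0.015 over all genes. All dHep libraries lay above all WT libraries for 4 members (20.8% of all genes) and below them for 8 (22.7% of all genes). Without WT replicate 2 or without WT replicate 3, 3 members passed, Ctss, Atp6v1a and Atp6v1g1 in each case.

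In the libraries labelled KO against WT, the whole-body comparison, 11 members fell and 5 rose, with the label reservation above. The falls comprised cathepsins S, K, C, D, B and O and the V-ATPase subunits Atp6v0d2, Atp6v1a, Atp6v1b2, Atp6v1e1 and Atp6v1c1, and the rises Ctsz, Ctsh, Atp6v0b, Atp6v1f and Atp6v1g1. The 16 calls are 51.6% of members beside a background of 43% of all genes tested (20.9% up and 22.1% down), and falls were 35.5% of members. The median log2 change was -0.045 over members and -0.013 over all genes. All libraries labelled KO lay above all WT libraries for 9 members (32.4% of all genes) and below them for 14 (33.8% of all genes). Both comparisons use the same 3 WT libraries, so the calls they have in common (Ctss, Ctsd, Ctsh, Atp6v1a, Atp6v1b2, Atp6v1f and Atp6v1g1) are not independent.

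**Figure D2:**
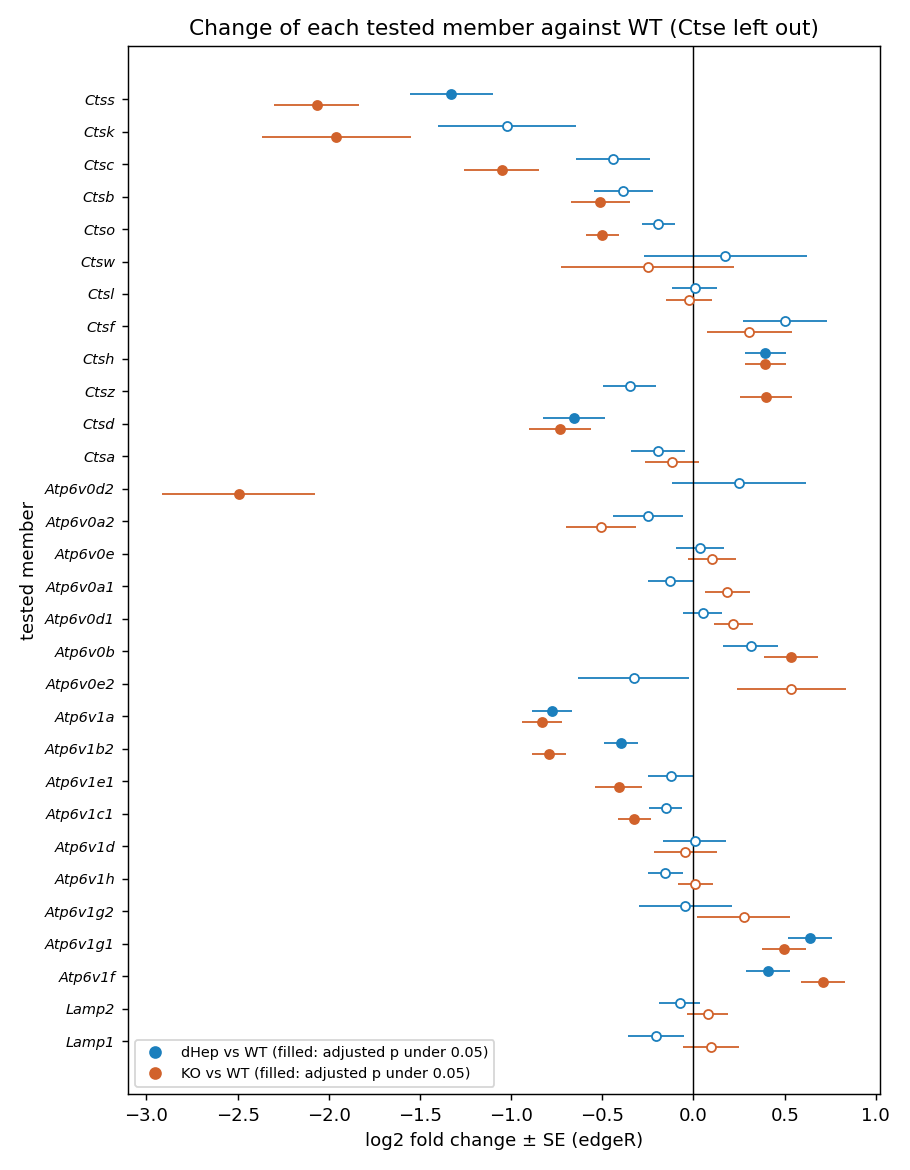
Points give the log2 fold change of 30 tested members against WT with its SE, for dHep (blue) and the libraries labelled KO (orange), filled where the edgeR adjusted p was under 0.05; Ctse, whose change in KO was -6.09 ± 2.43, is left out of the plot. The V1 subunits Atp6v1a and Atp6v1b2 lie left of 0 and Atp6v1f and Atp6v1g1 right of 0 in both comparisons.

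Cathepsin S, a cysteine protease that trims the invariant chain of MHC class II in antigen-presenting cells, fell most among the cathepsins that passed. Ctss stood at 79.4, 95.3 and 91.4 CPM in WT, 27.8, 49.2 and 29.03 in dHep, against 16.7, 24.3 and 22.6 under the KO label. The 3 groups did not overlap. The log2 fold change was -1.33 ± 0.23 in dHep (2.51-fold lower; edgeR adjusted p = 0.00404) and -2.07 ± 0.23 in KO (4.19-fold lower; edgeR adjusted p = 0.000339), and both calls held under all 17 alternatives. Between KO and dHep it did not pass (-0.74 ± 0.23; edgeR adjusted p = 0.0693, range over alternatives 0.0182 to 0.182), and it did without dHep replicate 1 (0.0451) or dHep replicate 3 (0.0386).

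Cathepsin K, a collagen-degrading protease of osteoclasts and some macrophages, was low throughout. Ctsk had 42, 64 and 50 reads in WT, 18, 33 and 20 in dHep, and 9, 15 and 6 in KO. That is 1.58, 2.37 and 1.78 CPM in WT, 0.539, 1.32 and 0.981 in dHep, and 0.422, 0.678 and 0.346 in KO. Both knockout groups lay below WT, and dHep and KO overlapped. The fall in KO passed (-1.96 ± 0.41; edgeR adjusted p = 0.00472), and the value in dHep did not (-1.02 ± 0.38; edgeR adjusted p = 0.0776, range over alternatives 0.0295 to 0.247; 0.0295 without dHep replicate 2). Cathepsin C, which activates the serine proteases of granulocytes and lymphocytes, stood at 89.1, 104 and 99.96 CPM in WT, 51.4, 97.8 and 66.5 in dHep, and 47.8, 41.6 and 51.8 in KO. Ctsc in dHep replicate 2 lay within the WT range, and all KO libraries lay below it. Ctsc fell in KO (-1.05 ± 0.21; edgeR adjusted p = 0.00351) and did not pass in dHep (-0.44 ± 0.20; edgeR adjusted p = 0.143). Without dHep replicate 2 the dHep value of Ctsc was -0.73 (edgeR adjusted p = 0.00768).

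The summed level of macrophage markers was lower in the same libraries. The 25 genes of a macrophage list summed to between 911 and 1162 CPM in WT, between 477 and 805 in dHep and between 266 and 449 in KO, and none was at 0. Of the 25, 11 fell and 0 rose in dHep, and 20 fell and 0 rose in KO, led by Itgax and Cx3cr1 in both, while falls were 11.9% and 22.1% of all genes tested. Of that list, 5 markers of resident Kupffer cells did not pass in dHep: Cd163 (1.38 ± 0.60), Timd4 (1.03 ± 0.58), Marco (0.39 ± 0.69) and Vsig4 (0.22 ± 0.38) had values above WT, and Clec4f was at -0.087 ± 0.28. In KO all of these had values below WT, and of them Clec4f fell (-1.27 ± 0.29; edgeR adjusted p = 0.00684). These 5 were singled out after their values were seen. They include the only 4 genes of the 25 with values above WT in dHep, and the other 21 had values below WT. On the same list, Cd5l (-0.95 ± 0.27; edgeR adjusted p = 0.0327) and Emr1 (-1.31 ± 0.40; edgeR adjusted p = 0.0406) fell in dHep. Whether Kupffer cell markers as a set were kept in dHep was not tested. Within dHep, replicate 2 had the highest macrophage sum (805 CPM) and the highest Ctss, Ctsk and Ctsc. Within KO, replicate 2 had the highest macrophage sum (449 CPM) and the highest Ctss and Ctsk, but the lowest Ctsc (41.6 CPM). Atp6v0d2 in dHep was highest in replicate 3 (7.01 CPM), which had the lowest macrophage sum of that group (477 CPM). In bulk RNA a smaller number of cells and a lower content of RNA in each cannot be told apart, and the part of these and the other markers given here in the cathepsin values was not tested. All 4 tested neutrophil markers (Csf3r, Retnlg, S100a8 and S100a9) fell in KO and 0 passed in dHep, and the sum of the 11 listed lay between 6.53 and 10.9 CPM in WT, 6.23 and 13.2 in dHep, and 3.42 and 5.13 in KO. Stellate cell markers (WT 679 to 765 CPM, dHep 358 to 541, KO 295 to 383) and endothelial markers (434 to 486, 291 to 397 and 214 to 294 CPM) were lower as well. Cholangiocyte markers summed to between 138 and 207 CPM in the WT libraries, and lay below that in dHep (61.4 to 70.2) and KO (82.4 to 133). Most single markers of that list went the other way. Of 7 tested, 5 had values above WT in each comparison (median log2 change 0.26 in dHep and 1.00 in KO). In dHep 1 fell and 0 rose, and in KO 1 fell and 2 rose. The sum includes Spp1, which is also on the macrophage list. Of 8 osteoclast markers Calcr was at 0, and the sum lay between 97.1 and 104 CPM in WT, 82.2 and 134 in dHep, and 124 and 149 in KO. Most of that sum was Acp5, the tartrate-resistant phosphatase, at 86.8 ± 3.72 CPM in WT (SD, n = 3). In KO, where Ctsk fell, Acp5 (0.50 ± 0.18; edgeR adjusted p = 0.0476) and the transcription factor Nfatc1 (0.35 ± 0.12; 0.0353) rose and the RANK receptor gene Tnfrsf11a fell (-1.35 ± 0.44; 0.0340).

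**Figure D3:**
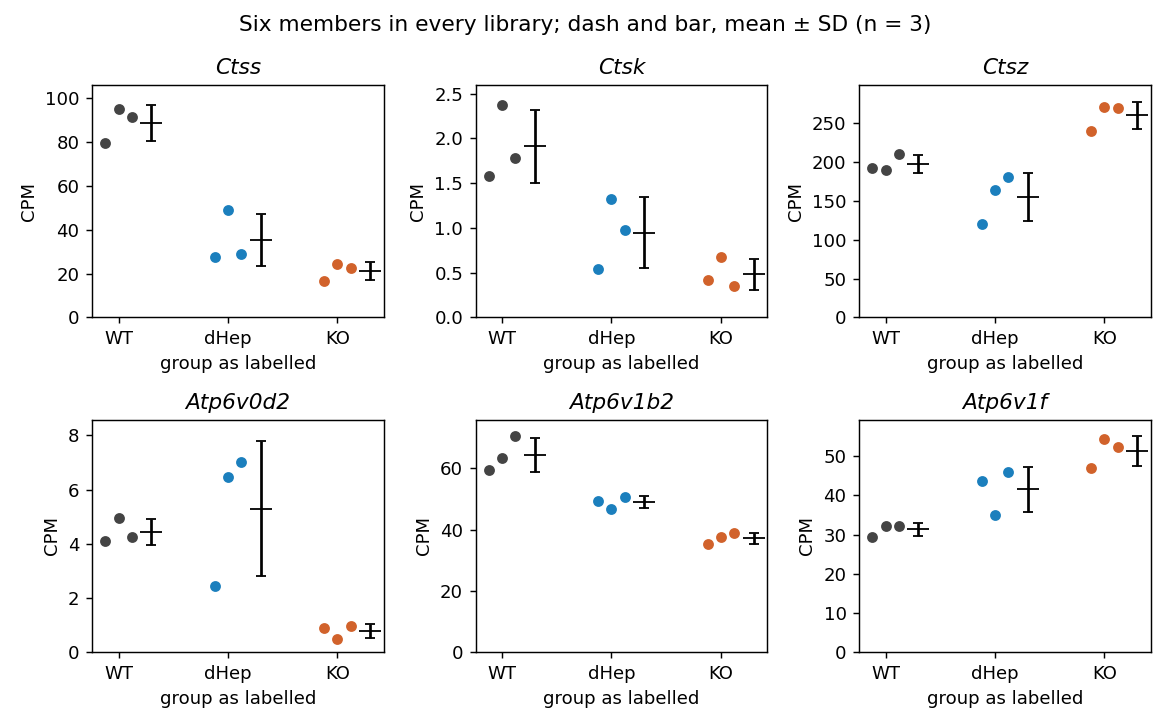
Points are the CPM of 6 members in each library by labelled group, and the dash with its bar is the mean ± SD (n = 3); each axis starts at 0. Ctss and Atp6v1b2 step down from WT to dHep to KO with no overlap, Ctsz is highest in KO, and Atp6v0d2 is lowest in the libraries labelled KO.

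Cathepsin D, the main aspartic protease of lysosomes, stood at 493, 562 and 566 CPM in WT, 249, 388 and 393 in dHep, and 310, 315 and 351 in KO. Every WT library lay above every other, and dHep and KO overlapped. Ctsd fell in dHep (-0.66 ± 0.17; edgeR adjusted p = 0.0227) and in KO (-0.73 ± 0.17; edgeR adjusted p = 0.00805). The dHep call was lost when WT replicate 2 (edgeR adjusted p = 0.0816) or WT replicate 3 (0.0836) was left out and with only both compared groups in the fit (0.0609). Cathepsin B, an abundant endo- and exopeptidase, stood at 833, 946 and 929 CPM in WT, 523, 742 and 807 in dHep, and 617, 614 and 668 in KO. Ctsb in each library of dHep and KO lay below the lowest WT library. It fell in KO (-0.51 ± 0.16; edgeR adjusted p = 0.0295), did not pass in dHep (-0.39 ± 0.16; edgeR adjusted p = 0.113, and 0.0498 without dHep replicate 3), and the KO call ended without WT replicate 2 (0.0936), WT replicate 3 (0.0857), KO replicate 1 (0.0824), KO replicate 2 (0.0915) or KO replicate 3 (0.0649). Cathepsin O, a little-studied cysteine protease, fell in KO from 88.9 ± 1.27 to 62.8 ± 3.92 CPM (SD, n = 3; log2 fold change -0.50 ± 0.091, SE; edgeR adjusted p = 0.00257), and in dHep stood at 77.8 ± 6.67 CPM (edgeR adjusted p = 0.151).

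Cathepsins Z and H were the cysteine cathepsins that rose. Cathepsin Z is a carboxypeptidase, and Ctsz stood at 191, 190 and 210 CPM in WT, 120, 164 and 180 in dHep, and 240, 270 and 269 in KO. The order was dHep below WT below KO, with no overlap. Ctsz rose in KO against WT only narrowly (0.40 ± 0.14; edgeR adjusted p = 0.0486), and did not pass in dHep (-0.35 ± 0.14; edgeR adjusted p = 0.105, and 0.0431 without dHep replicate 3). The KO call ended without WT replicate 1 (0.132), WT replicate 2 (0.140), WT replicate 3 (0.0842), dHep replicate 2 (0.0511), KO replicate 2 (0.127) or KO replicate 3 (0.127), and with no filter on low counts (0.0662). Cathepsin H, an aminopeptidase, rose from 218 ± 3.41 CPM in WT to 286 ± 39.8 in dHep and 286 ± 8.50 in KO (SD, n = 3). Its log2 fold change was 0.39 ± 0.11 in each (edgeR adjusted p = 0.0315 in dHep and 0.0191 in KO). Ctsh lost the dHep call without WT replicates 1, 2 and 3 (0.104, 0.0980 and 0.109), dHep replicate 3 (0.0588) or KO replicate 3 (0.0540), and with only both compared groups in the fit (0.0682). It lost the KO call without WT replicates 1, 2 and 3 (0.0669, 0.0598 and 0.0663) or KO replicate 3 (0.0633). Cathepsins L, F and W and the serine carboxypeptidase cathepsin A (Ctsa), which protects lysosomal galactosidase, passed in no comparison, with log2 changes against WT between -0.25 (Ctsw in KO) and 0.50 (Ctsf in dHep). Without dHep replicate 1, Ctsf passed in dHep (0.77; edgeR adjusted p = 0.00274) and in KO (0.31; edgeR adjusted p = 0.0337). Ctsl, the most abundant cathepsin per length, differed from WT by 0.0059 ± 0.12 in dHep and -0.025 ± 0.12 in KO.

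Cathepsin E, an aspartic protease of stomach, skin and immune cells, split the libraries across groups. Ctse had 4374 reads in WT replicate 3 and 2243 in dHep replicate 3, and between 9 and 47 in the other 7 libraries. In CPM that is 1.76, 1.48 and 156 in WT, 0.809, 1.89 and 110 in dHep, and 1.27, 0.407 and 0.635 in KO. The lower of both high libraries stood 58.3-fold above the highest of the other 7. Ctse passed in no comparison (KO against WT -6.09 ± 2.43; edgeR adjusted p = 0.0679, range over alternatives 0.0287 to 0.699), and without WT replicate 3 its log2 change in KO was -1.07 (edgeR adjusted p = 0.699). Without dHep replicate 3 the change in KO was -6.09 (edgeR adjusted p = 0.0287). The gene was singled out after its values were seen. Among 14993 genes with at least 15 reads it was the 1 gene at least 10-fold, and also the 1 gene at least 2-fold, higher in both of those libraries than in every other. Next with at least 10 reads in both was Birc5, at 1.43-fold. Other genes thus did not share the pattern at these folds. Ctse lies at chr1:131638314-131675507 of mm10, on the plus strand.

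**Figure D4:**
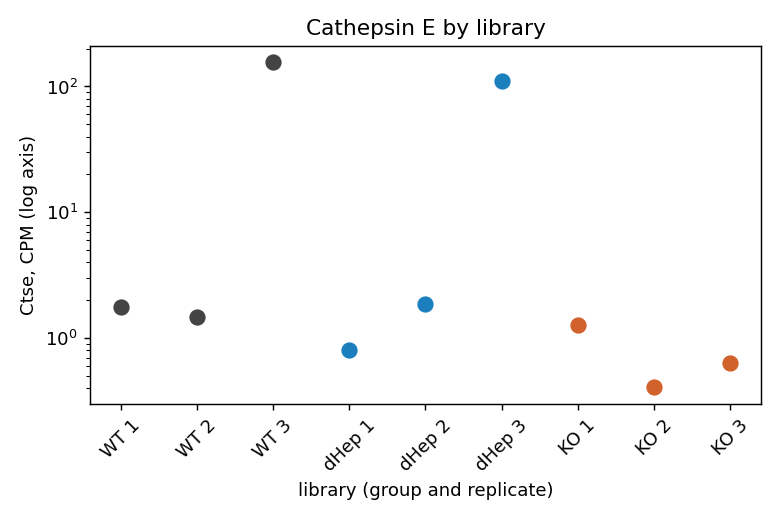
Each point is the CPM of Ctse in 1 library, on a log axis, coloured by labelled group. WT replicate 3 (156) and dHep replicate 3 (110) stand apart from the other 7 libraries, which lie between 0.407 and 1.89.

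In the membrane part V0, the d subunit that couples V0 to the rotor showed the largest change among all members that passed. Atp6v0d2, the d isoform known from osteoclasts and macrophages (mm10 chr4:19876838-19922566, minus strand), stood at 4.09, 4.96 and 4.24 CPM in WT, 2.43, 6.46 and 7.01 in dHep, against 0.891, 0.497 and 0.981 under the KO label. KO libraries lay below all others, while dHep surrounded the WT values. Atp6v0d2 fell in KO against WT (-2.49 ± 0.42, 5.63-fold lower; edgeR adjusted p = 0.00176) and against dHep (-2.74 ± 0.42, 6.69-fold lower; edgeR adjusted p = 0.00642), under all 17 alternatives in both. In dHep against WT its value was 0.25 ± 0.37 (edgeR adjusted p = 0.650). The widely expressed partner Atp6v0d1 stood at 66.3, 65.6 and 71.4 CPM in WT, 63.1, 65.5 and 82.0 in dHep, and 76.6, 80.9 and 79.0 in KO, and passed in no comparison (0.22 ± 0.11 in KO; edgeR adjusted p = 0.127, and 0.0277 without dHep replicate 3). Per length, Atp6v0d2 made up 4.06% ± 0.524 (SD, n = 3) of d-subunit transcripts in WT, 4.55% ± 1.88 in dHep and 0.646% ± 0.218 in KO. The isoform was thus a small share in each group, and the share was 2.42% in dHep replicate 1 against 5.99% and 5.24% in dHep replicates 2 and 3.

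Atp6v0b, the c'' subunit of the proton ring, stood at 43.8, 44.4 and 46.7 CPM in WT, 49.2, 47.9 and 70.6 in dHep, and 61.5, 72.4 and 61.4 in KO. All libraries of both knockout groups lay above WT. The rise passed in KO (0.53 ± 0.15; edgeR adjusted p = 0.0175) and not in dHep (0.31 ± 0.15; edgeR adjusted p = 0.154). The KO call ended without WT replicate 1 (0.0574), WT replicate 2 (0.0614) or KO replicate 2 (0.0715). Atp6v0a1 and Atp6v0a2, isoforms of the a subunit that forms the proton half-channels, and Atp6v0e and Atp6v0e2, the small e subunits, passed in no comparison. Atp6v0a2 came nearest, at -0.51 ± 0.19 in KO (edgeR adjusted p = 0.0560, range over alternatives 0.0016 to 0.171). It passed there under 7 of 17 alternatives. Among them were DESeq2 (adjusted p = 0.0402) and limma voom with quality weights (adjusted p = 0.0016). With edgeR it passed there under the stricter filter (adjusted p = 0.0481), with only the compared groups (0.0044), and without dHep replicate 2 (0.00983) or dHep replicate 3 (0.0234). In dHep, Atp6v0a2 passed without dHep replicate 2 (-0.50; edgeR adjusted p = 0.0275). Atp6v0a1 passed in dHep without dHep replicate 3 (-0.29; edgeR adjusted p = 0.0369).

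Subunits of the peripheral part V1 moved in opposite directions. The catalytic subunit A, Atp6v1a, stood at 103, 99.7 and 108 CPM in WT, 55.7, 67.6 and 57.7 in dHep, and 65.7, 55.5 and 53.0 in KO. Both knockout groups lay below WT and overlapped each other. Atp6v1a fell in dHep (-0.78 ± 0.11; edgeR adjusted p = 0.00201) and in KO (-0.83 ± 0.11; edgeR adjusted p = 0.000677) under all 17 alternatives. Subunit B, which alternates with A in the ATP-binding head, was counted as Atp6v1b2 alone, at 59.5, 63.3 and 70.5 CPM in WT, 49.4, 46.8 and 50.7 in dHep, and 35.2, 37.7 and 38.8 in KO. The 3 groups did not overlap. Atp6v1b2 (mm10 chr8:69088736-69113717, plus strand) fell in dHep (-0.40 ± 0.094; edgeR adjusted p = 0.0152) and in KO (-0.79 ± 0.094; edgeR adjusted p = 0.000434). The dHep call ended without WT replicate 2 (0.0573) or WT replicate 3 (0.0820) and with only both compared groups in the fit (0.0589).

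Subunit F, part of the rotor's central shaft, rose. Atp6v1f stood at 29.4, 32.3 and 32.2 CPM in WT, 43.8, 34.9 and 45.8 in dHep, and 46.9, 54.5 and 52.4 in KO, and the 3 groups did not overlap. Its log2 change was 0.41 ± 0.12 in dHep (edgeR adjusted p = 0.0368) and 0.71 ± 0.12 in KO (edgeR adjusted p = 0.00183). The KO call held under all 17 alternatives. For Atp6v1f the dHep call ended under 10 of 17, among them the omission of WT replicate 1 (edgeR adjusted p = 0.124), WT replicate 2 (0.0991), WT replicate 3 (0.1004), dHep replicate 1 (0.0804), dHep replicate 3 (0.0898), KO replicate 2 (0.0543) or KO replicate 3 (0.0628). Subunit G, of the peripheral stalks, rose as Atp6v1g1, from 24.8, 21.2 and 23.5 CPM in WT to 35.4, 36.02 and 37.0 in dHep and 27.7, 35.5 and 34.8 in KO. All WT libraries lay below the other 6. Atp6v1g1 changed by 0.64 ± 0.12 in dHep (edgeR adjusted p = 0.00606) and 0.49 ± 0.12 in KO (edgeR adjusted p = 0.00978), under all 17 alternatives. Its partner Atp6v1g2, the neuronal isoform, stood at 1.35, 1.11 and 1.10 CPM in WT, 1.26, 0.923 and 1.27 in dHep, and 1.27, 1.45 and 1.62 in KO, and passed in no comparison.

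Atp6v1e1, of the same stalks, and Atp6v1c1, which links stalk and membrane part, fell in KO. Atp6v1e1 went from 118 ± 7.51 to 89.2 ± 7.34 CPM (SD, n = 3; -0.41 ± 0.13, SE; edgeR adjusted p = 0.0290), and the call ended without WT replicate 2 (0.0859), WT replicate 3 (0.0991), KO replicate 1 (0.0988) or KO replicate 2 (0.0810). Atp6v1c1 went from 46.3 ± 3.08 to 37.0 ± 0.892 CPM (-0.32 ± 0.092; edgeR adjusted p = 0.0189), and the call ended without WT replicate 3 (0.0879), KO replicate 2 (0.0652) or KO replicate 3 (0.0669). In dHep both were lower than WT without passing (Atp6v1e1 -0.12 ± 0.13, edgeR adjusted p = 0.517; Atp6v1c1 -0.15 ± 0.092, 0.251), and neither passed between KO and dHep (edgeR adjusted p = 0.181 and 0.253). Atp6v1d, of the central shaft, and Atp6v1h, the regulatory subunit that joins ATP hydrolysis to proton flow, passed in no comparison, with log2 changes against WT between -0.15 and 0.01. Of the 9 V1 subunits tested, 2 fell and 2 rose in dHep, and 4 fell and 2 rose in KO. That is 44.4% of these subunits called in dHep and 66.7% in KO, beside 24.3% and 43% of all genes tested.

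LAMP1 and LAMP2, heavily glycosylated proteins that line the lysosomal membrane, did not pass in any comparison with all libraries. Lamp1 stood at 809, 814 and 832 CPM in WT, 563, 706 and 862 in dHep, and 841, 869 and 915 in KO. Lamp2 stood at 727, 701 and 693 CPM in WT, 612, 681 and 719 in dHep, and 776, 692 and 769 in KO. The dHep libraries spread most, with replicate 1 lowest for both genes. Log2 changes of Lamp1 were -0.20 ± 0.15 in dHep (edgeR adjusted p = 0.357) and 0.097 ± 0.15 in KO (edgeR adjusted p = 0.633), and those of Lamp2 -0.076 ± 0.11 and 0.078 ± 0.11 (edgeR adjusted p = 0.654 and 0.6001).

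Between the libraries labelled KO and dHep, a contrast that also tests whether both changes against the shared WT libraries differ, 3 members passed. Ctsz was higher in KO (0.75 ± 0.14; edgeR adjusted p = 0.0147), and Atp6v0d2 (above) and Atp6v1b2 (-0.40 ± 0.094; edgeR adjusted p = 0.0309) were lower. The 3 are 9.68% of members beside a background of 9.62% of all genes tested (4.23% up and 5.39% down), so the share of members was at the background. All libraries labelled KO lay above all dHep libraries for 3 members (13.8% of all genes) and below them for 5 (12.7% of all genes). The number of members that passed was 9 without dHep replicate 1, 8 without dHep replicate 3, 1 without KO replicate 2 and 1 without KO replicate 3. Those added without dHep replicate 1 were Ctss, Ctsc, Ctso, Ctsf, Atp6v0e2 and Atp6v1e1, and those added without dHep replicate 3 were Ctss, Lamp1, Atp6v0a1, Atp6v0b and Atp6v0d1. Ctsz ended without KO replicate 2 (0.0603) or KO replicate 3 (0.0644), and Atp6v1b2 without WT replicate 2 (0.0691), KO replicate 1 (0.0922), KO replicate 2 (0.0917) or KO replicate 3 (0.0869).

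With WT replicate 1 and dHep replicate 2, the libraries with the highest pancreatic sums, left out together, 8 members passed in dHep against WT (2 rose and 6 fell), 16 in KO against WT (3 rose and 13 fell) and 1 in KO against dHep, Atp6v0d2. Ctsh then lost both calls (edgeR adjusted p = 0.122 in dHep and 0.0667 in KO), Ctsz both of its calls (0.128 against WT and 0.0549 against dHep) and Atp6v1b2 its call against dHep (0.0673). The 13 falls in KO included Ctse (-6.66; edgeR adjusted p = 0.0436), which among WT libraries was high in replicate 3 alone.

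Other genes of the lysosome were taken from lists chosen by function, and the share called on each is read against all genes tested, of which 24.3% passed in dHep, 43% in KO and 9.62% in KO against dHep. Of 14 tested V-ATPase accessory and assembly genes, 2 fell and 0 rose in dHep: Atp6ap2, the accessory protein also known as the prorenin receptor (-0.44 ± 0.13), and Wdr7 of the complex that regulates pump assembly (-0.39 ± 0.12). In KO, Wdr7 (-0.46 ± 0.12) and the oxidation-resistance family gene Ncoa7 (-1.48 ± 0.35) fell and the assembly factor Tmem199 rose (0.58 ± 0.13). The calls were 14.3% of this list in dHep and 21.4% in KO, both under the share of all genes. In KO against dHep the lowest edgeR adjusted p on this list was 0.0907, for Tmem199. The a3 isoform gene Tcirg1, which the symbol rule does not match, passed in no comparison. Of 37 tested genes listed as lysosomal hydrolases, 8 fell and 2 rose in dHep. The sulfatases Arsa (-0.85 ± 0.10) and Arsb (-0.72 ± 0.12) led the falls, and Naglu (0.60 ± 0.18) and Rnaset2b (1.29 ± 0.40) the rises. In KO 13 fell and 7 rose, among them Arsb (-1.53 ± 0.12) with a fall and acid alpha-glucosidase Gaa (0.62 ± 0.13) with a rise. In KO against dHep 4 fell and 1 rose, with Arsb (-0.81 ± 0.12) lower and the sulfamidase Sgsh (0.48 ± 0.11) higher. The hydrolase calls were 27% of the list in dHep, near the share of all genes, 54.1% in KO and 13.5% in KO against dHep. These shares count Pgap1, which was listed but is not a lysosomal hydrolase, and which passed in no comparison.

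Of 24 lysosomal membrane and transport genes, 5 fell and 1 rose in dHep and 7 fell and 0 rose in KO. These were 25% of the list in dHep, near the 24.3% of all genes, and 29.2% in KO, under the 43% of all genes. The tetraspanin Cd63 (-2.26 ± 0.26 in dHep and -2.04 ± 0.26 in KO) and Laptm5 of immune cells (-1.11 ± 0.23 and -1.55 ± 0.23) had the smallest p, and the transporter Abcd4 was the 1 that rose (0.41 ± 0.13 in dHep). Cd68, which fell in both, is also on the macrophage list. The sterol carrier Npc2 was the 1 gene lower in KO than in dHep (-0.46 ± 0.12). Of 15 sorting genes, 3 fell and 0 rose in dHep, including Vps41 (-0.55 ± 0.088) and the mannose-6-phosphate receptor Igf2r (-0.61 ± 0.10), which carries hydrolases to lysosomes. In KO, Gnptab (-0.75 ± 0.098), which starts the mannose-6-phosphate tag, and Vps41 (-0.61 ± 0.088) fell, and 3 rose, including Ap1m1 (0.62 ± 0.11) and sortilin, Sort1 (0.98 ± 0.30). In KO against dHep 3 were higher and 0 lower, including Ap1m1 (0.55 ± 0.11) and Igf2r (0.45 ± 0.10). Sorting genes called were 20% of the list in dHep and 33.3% in KO, both under the share of all genes, and 20% in KO against dHep, beside 9.62% of all genes.

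Among 18 tested regulators of lysosomal genes and their nutrient-sensing kinase complex, 3 rose and 2 fell in dHep, 4 rose and 8 fell in KO, and 2 were higher and 2 lower in KO than in dHep. The shares called were 27.8%, 66.7% and 22.2%, beside 24.3%, 43% and 9.62% of all genes tested. Tfeb, the transcription factor of the E-box element above, stood at 2.52, 2.33 and 2.46 CPM in WT, 2.91, 4.33 and 5.44 in dHep, and 4.97, 5.20 and 4.90 in KO. WT libraries lay below all others, and Tfeb rose in dHep (0.79 ± 0.22; edgeR adjusted p = 0.0319) and KO (1.04 ± 0.23; edgeR adjusted p = 0.00557). Tfec (-1.25 ± 0.29, edgeR adjusted p = 0.00773) and Mitf (-0.47 ± 0.16, edgeR adjusted p = 0.0407), on the same list, fell in KO. Neither passed in dHep. The kinase Mtor fell in dHep (-0.93 ± 0.096) and in KO (-0.43 ± 0.096), and was higher in KO than in dHep (0.51 ± 0.096). The GTPase gene Rragc fell in dHep (-0.28 ± 0.084) and in KO (-0.41 ± 0.085). The folliculin partner Fnip2 (-1.45 ± 0.19) and Lamtor3 (-0.54 ± 0.11) fell in KO and were lower there than in dHep (-1.08 ± 0.19 and -0.60 ± 0.11). Lamtor4, listed under an older symbol, rose in dHep (0.77 ± 0.19) and KO (0.89 ± 0.19), and Tfe3 was higher in KO than in dHep (0.40 ± 0.11). Of 6 tested genes of the cystatin superfamily, whose classical members inhibit cysteine cathepsins, the plasma proteins Fetub (1.35 ± 0.22 in dHep and 1.49 ± 0.22 in KO) and Ahsg (1.03 ± 0.18 and 0.94 ± 0.18) rose in both comparisons against WT and 0 fell, which is 33.3% of the list in each.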

How the data were processed

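Poly(A) RNA of 9 mouse livers was sequenced after a stranded library preparation, per the labels' protocols. Per the submitters' processing notes, FastQC, HISAT2 2.1.0, featureCounts and DESeq2 were used with mm10. The deposited values are raw read counts of each gene, made with featureCounts 1.6.2 at strand setting 2, per the file headers, beside a Length column in bases (a unit of other kind). Read counts carry no molecular identifiers, and intervals and floors cover counting error only.

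From these counts, 13141 genes passed filterByExpr (minimum count 10, minimum total 15). A quasi-likelihood model was fitted to all 9 libraries with edgeR 4.0.16 (R 4.3.3) and TMM factors (0.883 to 1.10). Benjamini-Hochberg adjustment covered every gene tested, with 0.05 as the threshold, and no list had a test of its own. RPKM was computed as CPM over Length. The script was tested on simulated counts. Alternatives were median-of-ratios factors, DESeq2 1.42.0, limma 3.58.1 voom with quality weights, no or a stricter low-count filter (1 CPM in 3 libraries), only the compared groups, a replicate block, each library left out, and WT replicate 1 with dHep replicate 2 left out.

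The members and all lists were chosen with earlier results of these data known. Every member that passed is named; values per library are given for up to 6 cathepsins and 6 V-ATPase subunits with the largest changes, their isoform partners and both LAMP genes, and from each functional list the 2 genes with the smallest p per direction and comparison are named, except some that are not reported here. Ctse, Ctsj, Acp5, Cd68, Tcirg1, Tfec and Mitf were added. Symbols of 7 listed genes were matched through RefSeq synonyms.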

Additional observations from a re-analysis of the deposited data

Results flagged for a closer look

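For 3 members the change in the libraries labelled KO differed from the change in dHep, by the edgeR contrast between both knockout groups. The difference on the log2 scale, KO minus dHep, was 0.75 for Ctsz (edgeR adjusted p = 0.0147), which stood above WT in all 3 libraries labelled KO and below it in all 3 of dHep. It was -2.74 for Atp6v0d2 (edgeR adjusted p = 0.00642), lower in 3 of 3 libraries labelled KO than in every dHep library. For Atp6v1b2 it was -0.40 (edgeR adjusted p = 0.0309), also lower in 3 of 3. Only the Atp6v0d2 call held under all 17 alternatives. The Ctsz call was lost under 4, including only the compared groups in the fit (edgeR adjusted p = 0.0617). The Atp6v1b2 call was lost under 7, including that fit (edgeR adjusted p = 0.0976) and limma voom with quality weights (adjusted p = 0.104).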

How the results depend on the processing

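All 17 alternatives kept 3 of the 7 members that passed in dHep against WT, 10 of the 16 in KO against WT, and 1 of the 3 between both knockout groups, and none of the called members changed sign under any. With each library left out in turn, 3 to 10, 11 to 19 and 1 to 9 members passed in the 3 comparisons. With only the compared groups in the fit, 3 passed in dHep against WT and 1 in KO against dHep. In KO against dHep, DESeq2 gave 6, and 1 passed when WT replicate 1 and dHep replicate 2 were both left out. Over all genes the count in dHep against WT was 3192, and 1359 to 4025 with a library left out. In KO against dHep it was 1264, with 386 to 2809 when a library was left out and 342 to 2016 under the other alternatives. Median-of-ratios factors moved the median of all genes by at most 0.012 (log2). Same-numbered libraries did not deviate together (r from -0.272 to 0.0273 over the 3 comparisons, 0 of 3 pairs over 0.1 in each). With 3 pairs in each comparison, this check gave no sign of a pairing by replicate number but cannot exclude one. Ctse was high in WT replicate 3 and dHep replicate 3 alone. With the replicate number as a block, 6, 16 and 4 members passed. Depth limits Ctsk, Atp6v0d2, Ctsw, Atp6v1g2, Atp6v0e2 and the untested members, which have few reads.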

Other observations

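The makeup of V-ATPase subunits that exist as isoforms was as follows, per length and with no test. Of the a-subunit transcripts of Atp6v0a1, Atp6v0a2 and Atp6v0a4, Atp6v0a1 made up 48.0% to 49.8% (WT), 40.7% to 62.3% (dHep libraries) and 58.2% to 63.6% (libraries labelled KO). With the a3 gene Tcirg1 counted in, WT libraries held 21.0% to 23.9% of Tcirg1, dHep libraries 25.1% to 31.9% and libraries labelled KO 23.2% to 29.1%. In WT the a1 and a2 genes were thus nearly even, and in every library labelled KO the a1 gene held the larger share. The minor isoforms Atp6v0e2 (1.18% to 3.40% of e-subunit transcripts over all libraries) and Atp6v1g2 (1.84% to 3.83% of G-subunit transcripts) stayed small in every library.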
